A study of Mus musculus with 6 samples.

Results

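AW112010 and 9 other long noncoding RNA genes (Malat1, Neat1, Gas5, Snhg1, Snhg12, Epb41l4aos, Mir17hg, Kcnq1ot1 and Dleu2) were followed in mouse Th17 cells, the CD4+ T cells that make interleukin-17. The genes were taken by name and matched by symbol to the gene identifiers of the count files, where 8 of the 10 had an entry among 39179 genes. No value is given for Snhg1 and Kcnq1ot1, whose identifiers were not matched. The genes were chosen by measured values of these same libraries: AW112010 by its difference in expression between the groups, the others by their expression level as long noncoding RNAs. Fold changes and levels of these 8 genes are therefore descriptions, and no p-value between the groups is printed for them.

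Naive CD4+ T cells of C57BL/6 mice with 3 reporters (IL17a/hCD2, Ifng/Thy1.1 and Foxp3/GFP, where hCD2 is human CD2) were cultured for 5 days. The medium held TGF-β at 2.5 ng/mL and IL-6 at 20 ng/mL, blocking antibodies to IL-4 and IFN-γ at 10 µg/mL each and anti-CD3 at 5 µg/mL, and the feeder cells were irradiated spleen cells without CD4+ cells. The 3 desIgf1 libraries came from cultures that also held 30 ng/mL desIgf1, a shortened form of the growth factor Igf1 with weak affinity for the proteins that sequester it, and the 3 control libraries from cultures without it. Both groups share the 3 reporters, the cytokines and the sort, which kept cells positive for human CD2 and negative for Thy1.1 and GFP. The treatment text of the labels lists desIgf1 for all 6 libraries, and the groups follow the sample titles and the series design.

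Long noncoding RNAs are transcripts without a conserved protein-coding frame. Some act in the nucleus as structural RNA, such as Malat1 in nuclear speckles and Neat1 as the scaffold of paraspeckles. Others are the spliced shells around small RNAs cut from their introns or exons: Gas5, Snhg1, Snhg12 and Epb41l4aos host small nucleolar RNAs, which guide modification of ribosomal RNA, and Mir17hg and Dleu2 host microRNAs. Gas5, Snhg1 and Snhg12 are known for a start of C and T bases, a feature shared with ribosomal protein genes, and for decay when ribosomes reach their stop codons. AW112010 is known from activated macrophages and T cells, where it is induced by interferon, and its transcript carries a short noncanonical reading frame that macrophages translate. Kcnq1ot1 silences neighbouring genes on the paternal chromosome. In the annotation used (GENCODE M21), 8 of the 10 genes and 7 of the 8 measured ones carry a tag as hosts of smaller RNAs, which 154 of 4238 long noncoding RNA genes in the files carry, and 4 of the 10 lie on chromosome 19.

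The microRNAs of the 2 host genes are shown because they are the product for which these hosts are known, and the mature forms were not measured here. The sequences are from RefSeq (GRCm38.p6), 5′ to 3′, with the seed (bases 2 to 8) in capitals. Mir17hg (chromosome 14, 115042879 to 115046727, plus strand) gives 6 microRNAs with 4 different seeds, and Dleu2 (chromosome 14, 61602839 to 61682373, minus strand) gives 2 with 1 seed.
mmu-miR-17-5p: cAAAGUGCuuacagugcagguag
mmu-miR-20a-5p: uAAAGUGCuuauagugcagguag
mmu-miR-18a-5p: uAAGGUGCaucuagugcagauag
mmu-miR-19a-3p: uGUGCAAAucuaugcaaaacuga
mmu-miR-19b-3p: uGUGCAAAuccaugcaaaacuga
mmu-miR-92a-3p: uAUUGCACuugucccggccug
mmu-miR-15a-5p: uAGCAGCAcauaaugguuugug
mmu-miR-16-5p: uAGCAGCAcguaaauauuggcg
The first pair shares a seed, the miR-19 pair shares another, and miR-15a and miR-16 share theirs.

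The starts of the snoRNA hosts are shown for their C and T runs, as 60 bases centred on the RefSeq start (30 before it and 30 from it on), with the longest run of C and T bases touching the 21 bases around the start in capitals. Gas5 has 2 RefSeq starts, at 161034601 and 161035166 of chromosome 1.
Gas5, first start: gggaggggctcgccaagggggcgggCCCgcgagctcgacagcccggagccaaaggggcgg
Gas5, second start: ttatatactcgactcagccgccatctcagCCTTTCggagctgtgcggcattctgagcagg
Snhg12: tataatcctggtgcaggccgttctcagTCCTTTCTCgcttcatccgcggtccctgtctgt
Snhg1: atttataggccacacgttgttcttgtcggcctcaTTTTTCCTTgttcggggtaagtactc
The run is 9 bases long in Snhg12, where it spans the start, and in Snhg1, where it begins at base 5 from the start. For Gas5 it is 3 bases, all before the start, at the first start and 6 bases, across the start, at the second. The median over 32851 RefSeq starts is 4 bases, and 14% of them have a run of at least 8. By the same rule the microRNA host Dleu2 has a run of 13, which begins 15 bases before the start and ends before it.

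The window before and after the RefSeq start of AW112010 is shown because AW112010 had the largest fold change of the 8 measured genes. It covers chr19:11050517-11050816 on the minus strand, 250 bases before the start in lower case and 50 bases from the start on in capitals. The GENCODE model starts further upstream, at 11055808.
AW112010: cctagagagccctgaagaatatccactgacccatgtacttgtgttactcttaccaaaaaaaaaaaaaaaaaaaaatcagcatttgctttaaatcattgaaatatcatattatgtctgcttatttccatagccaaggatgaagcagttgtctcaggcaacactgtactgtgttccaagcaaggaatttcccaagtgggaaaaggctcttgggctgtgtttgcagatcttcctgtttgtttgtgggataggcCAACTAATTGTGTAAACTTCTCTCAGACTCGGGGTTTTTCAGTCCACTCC
Neither strand of this window holds the core of the interferon response element (GAAA, any 2 bases, GAAA) or the STAT site (TTCNNNGAA). Among 32851 RefSeq windows of 300 bases, 3.44% hold the first and 8.3% the second.

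Gene counts summed to between 34567899 and 47929948 per library, and long noncoding RNA genes held 0.548 to 0.884% of them. The 2 libraries numbered 1 stood apart in this class through Xist, the RNA that coats the inactive X chromosome, at 1705 CPM (gene counts scaled to library size) in control 1 and 2219 CPM in desIgf1 1, against at most 0.682 CPM in the other 4. Without Xist the share of the class was 0.625 to 0.685% in 5 libraries and 0.548% in control 2. The 8 genes together held 0.123 to 0.186% of all counts. Markers of CD4 and Th17 cells summed to 4965 to 5182 CPM in controls and 5380 to 6123 CPM with desIgf1. The genes of this list did not all move together. Cd4 averaged 1787 CPM in controls and 1770 CPM with desIgf1, and Il23r 36.2 and 32.2 CPM. The others had higher means with desIgf1, among them Il17f at 670 CPM in controls and 1022 CPM with desIgf1. B cell markers summed to 70.0 to 178 CPM and 57.1 to 100.2 CPM, nearly all of it Ighm, with the other 7 of the list at 2.84 CPM or less. Markers of macrophages summed to 4.90 to 15.7 CPM and of dendritic cells to 1.97 to 10.4 CPM, and Xcr1, Siglech and Cd209a were at 0 in all libraries. The smallest p that the exact permutation test of 3 libraries against 3 allows is 0.1, which the CD4 and Th17 sums gave, with no overlap between the groups, and the B cell, macrophage and dendritic cell sums gave 0.6, 0.4 and 0.6 (two-sided). Markers of NK cells summed to 3.37 to 5.83 CPM and of CD8 T cells to 3.22 to 10.98 CPM, and those of neutrophils and erythroid cells to at most 0.716 CPM. The part of these cells in the results was not tested.

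Levels were compared between genes per length, as CPM per kb of merged exons, over all 6 libraries (SD, n = 6). The order was AW112010 at 185 ± 57.3, Malat1 at 93.4 ± 19.7, Gas5 at 76.1 ± 7.83, Epb41l4aos at 29.9 ± 4.39, Neat1 at 20.7 ± 6.55, Snhg12 at 9.70 ± 1.25, Mir17hg at 2.99 ± 0.602 and Dleu2 at 0.322 ± 0.0440 CPM per kb. Malat1 and Gas5 did not differ beyond their spread, nor did Epb41l4aos and Neat1. With the length of the longest transcript in place of the merged exons, Gas5 came to 112 and stood above Malat1, so this order depends on which length is taken. For Neat1 both lengths are 20771 bases, although 4 transcripts are annotated. The check therefore cannot show how far the level and rank of Neat1 depend on length. Among 755 tested long noncoding RNA genes AW112010 ranked 4, Malat1 5, Gas5 6, Epb41l4aos 14, Neat1 22 and Snhg12 44. AW112010 was at 135 ± 4.16 CPM per kb in controls and 235 ± 26.0 with desIgf1 (SD, n = 3), so its rank differed by group, 4 in controls and 2 with desIgf1.

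Per length the microRNA hosts were the lowest of the 8 genes. Mir17hg ranked 140 of the 755 and, at 2.99 CPM per kb, lay above the class median of 0.664 CPM per kb. The name "abundant" did not hold for Dleu2, which ranked 527 and lay below that median. Per kb of its longest transcript Dleu2 came to 0.891, above that median of merged exons, so its place depends on the length taken. By CPM without regard to length Dleu2 ranked 188. Over all tested genes the median was 6.43 CPM per kb, and 6 of the 8 genes lay above it. By CPM without regard to length, Malat1 and Neat1 ranked 2 and 3 in the class and made up 12.1 to 20.1% of its counts in each library.

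**Figure D1:**
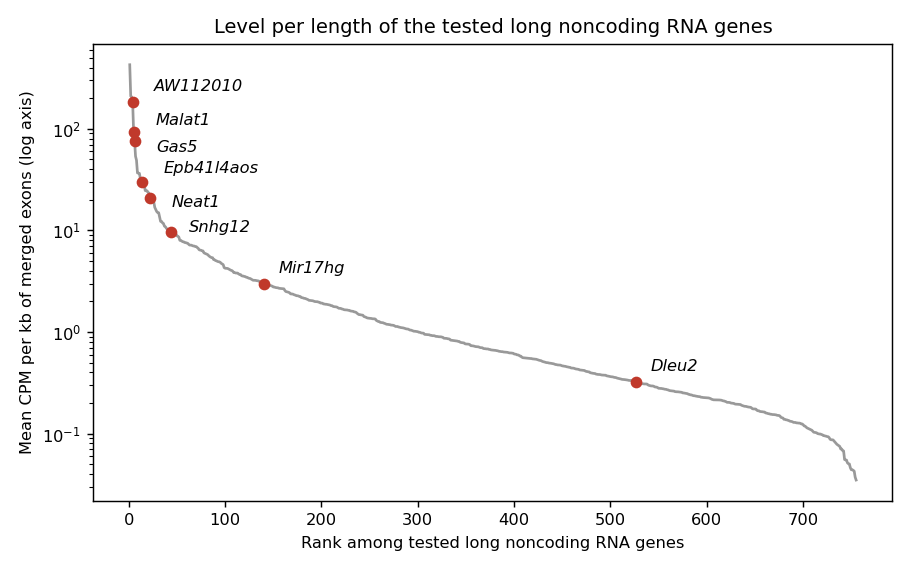
Mean level per length (CPM per kb of merged exons, log axis) of the 755 tested long noncoding RNA genes, in rank order (grey line), with the 8 measured genes as red points. AW112010, Malat1 and Gas5 sit at ranks 4 to 6, and Mir17hg and Dleu2 lower on the curve at ranks 140 and 527.

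The question of the series was how desIgf1 changes what Th17 cells express. Of the 8 genes, AW112010 was higher in every desIgf1 library and Snhg12 lower in every one, while the groups overlapped for the other 6. Over all 13846 tested genes the groups did not overlap for 13.5% (7.31% higher and 6.18% lower with desIgf1), and for 12.5% of the 755 long noncoding RNA genes. Without the replicate number in the model, 0 of the 8 passed edgeR's quasi-likelihood test at an adjusted p of 0.05, as did 0% of all genes (1130 at an unadjusted p under 0.05). With the replicate number as a block 0 of the 8 passed, against 0.318% of all genes (0.181% higher with desIgf1), and in DESeq2 1 passed, AW112010, against 1.46%. Nothing is read from these counts for AW112010, since this contrast chose it. In these bulk samples, more RNA per cell and more cells that hold the RNA cannot be told apart.

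**Figure D2:**
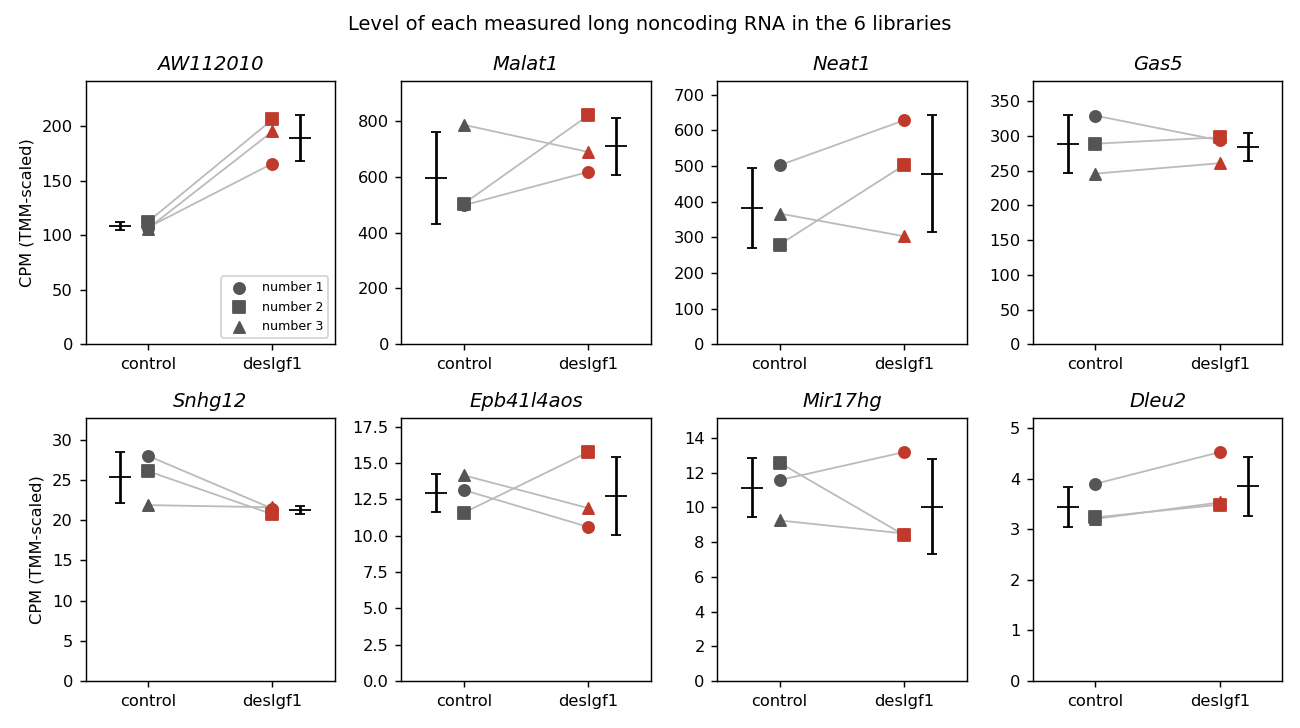
CPM of the 8 measured genes in the 6 libraries, 1 panel per gene with the axis from 0. Symbols give the replicate number, grey lines join libraries of the same number, and bars give mean and SD of 3 libraries. AW112010 lies at 106 to 112 CPM in controls and at 166 to 206 CPM with desIgf1, and Malat1 and Neat1 overlap between the groups.

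Values per library are given in the order of replicate numbers 1, 2 and 3. AW112010 (ENSMUSG00000075010, chromosome 19, 11047612 to 11055808) had CPM values of 107, 112 and 106 without desIgf1 and 166, 206 and 195 with it. The lowest desIgf1 library lay above the highest control, and the 3 controls lay close together. The means were 108 ± 3.34 and 189 ± 20.9 CPM (SD, n = 3), a log2 fold change of 0.80 ± 0.11 SE, or 1.74-fold. Within replicate numbers 1, 2 and 3 the log2 difference was 0.63, 0.88 and 0.88. Its pooled spread within groups was 0.12 on the log2 scale, against a median of 0.23 over all tested genes and 0.43 over the class. The spread is a description too, since the contrast that chose AW112010 also depends on spread. Both medians are over genes not matched to it in level. With any 1 library left out the log2 fold change stayed between 0.73 and 0.89.

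No tested gene lies within 50 kb of AW112010. The 5 genes whose pattern over the 6 libraries was most like that of AW112010 were Mapk8ip1, a scaffold of JNK signalling, the pseudogene Gm8399, Mansc1, Ebpl and Rsph1. Likeness was the root mean square difference of log2 CPM after subtracting each gene's mean, which was 0.086 to 0.12 for these 5 and 0.46 at the median of 11726 genes with a mean of at least 1 CPM. All 5 were low, with group means from 0.990 to 9.20 CPM, and their log2 fold changes were 0.66 to 0.88. Likeness to AW112010 picked them, and with it the difference between the groups, so these values are a description with no test.

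Genes of interferon signalling and genes linked to AW112010 were counted next, from a list of 16. All 16 were tested and 0 passed edgeR's test in either direction, with or without the block. The median log2 fold change was 0.12, against -0.0052 over all tested genes, with 12 of 16 above 0. It was 0.02 without desIgf1 1 and 0.24 without control 1. Irf8, a transcription factor of the interferon response, had CPM values of 33.1, 25.8 and 36.3 without desIgf1 and 47.5, 55.6 and 51.7 with it (log2 0.70 ± 0.15, edgeR adjusted p = 0.316, and 0.144 with the block). Jak2, a kinase of cytokine receptors, had CPM values of 628, 610 and 678 without desIgf1 and 971, 1054 and 802 with it (log2 0.56 ± 0.12, edgeR adjusted p = 0.333, blocked 0.166). The groups overlapped in neither gene. In DESeq2 Irf8 and Jak2 passed, with adjusted p of 0.00483 and 0.0101.

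Il10, an anti-inflammatory cytokine gene that AW112010 is known to restrain in T cells, was low in all libraries. It had CPM values of 2.41, 1.36 and 1.72 without desIgf1 and 0.601, 0.522 and 1.05 with it, and the groups did not overlap. Its log2 fold change of -1.33 ± 0.39 did not pass edgeR's test (adjusted p = 0.489, blocked 0.185).

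Malat1 (ENSMUSG00000092341, chromosome 19, 5795690 to 5802672), the nuclear speckle RNA, had CPM values of 498, 503 and 786 without desIgf1 and 617, 820 and 689 with it. Control 3 was above 2 of the 3 desIgf1 libraries, so the groups overlapped. The log2 fold change was 0.25 ± 0.20. It was 0.50 without control 3 and 0.13 without desIgf1 2. Within numbers 1, 2 and 3 the log2 difference was 0.31, 0.70 and -0.19.

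Neat1 (ENSMUSG00000092274, chromosome 19, 5824708 to 5845478), which lies 22036 bases from Malat1 on the same strand, had CPM values of 502, 280 and 367 without desIgf1 and 628, 503 and 303 with it. Its pooled spread within groups, 0.48 on the log2 scale, was the widest of the 8 genes, and the groups overlapped. The log2 fold change was 0.32 ± 0.30. It was 0.57 without control 1 and 0.07 without desIgf1 1. The log2 difference was 0.32, 0.85 and -0.28 within numbers 1 to 3, the same signs as for Malat1.

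The ratio of Neat1 to Malat1 counts was 1.01 and 1.02 in the control and desIgf1 libraries numbered 1, 0.556 and 0.613 in those numbered 2, and 0.467 and 0.440 in those numbered 3. Libraries of the same number differed by at most 1.10-fold and libraries of different numbers by up to 2.31-fold. Of the 28 pairs among the 8 genes, this was the 1 pair in which every difference within a number was smaller than every difference between numbers. The pair was singled out after its values were seen. The libraries numbered 1 were also those with Xist, and its part in the ratio was not tested.

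**Figure D3:**
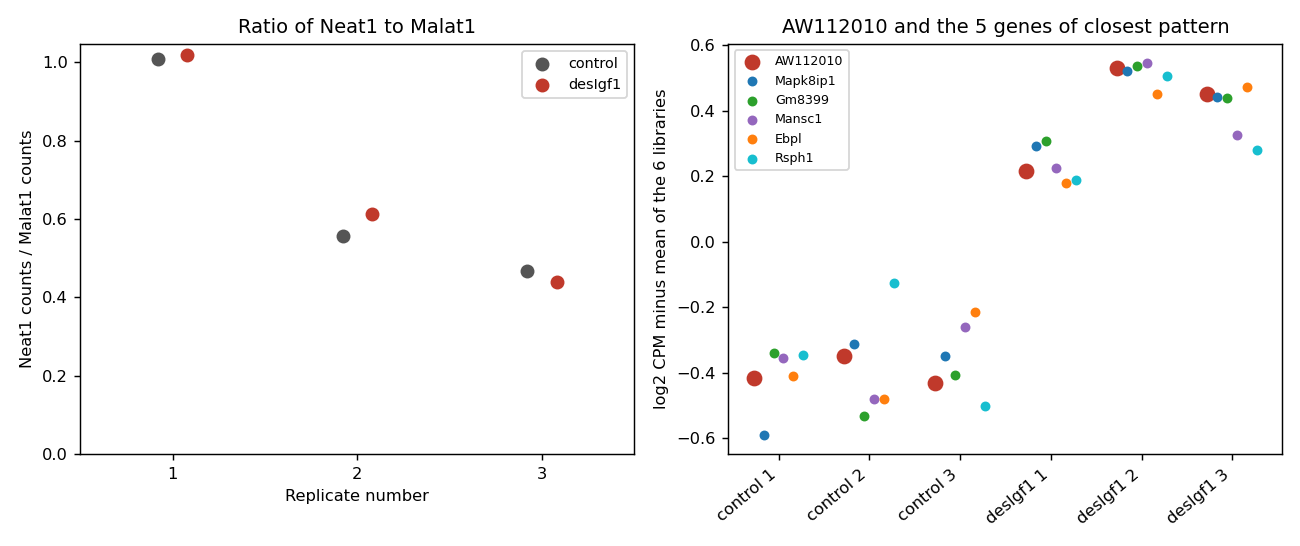
Left, ratio of Neat1 to Malat1 counts in each library by replicate number, with controls in grey and desIgf1 in red. Right, log2 CPM minus the mean of the 6 libraries for AW112010 (large red points) and the 5 genes of closest pattern. The ratio is near 1.01 in number 1 and at most 0.613 in numbers 2 and 3 in both groups, while AW112010 is above its mean in all 3 desIgf1 libraries.

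Differences between replicate numbers did not choose the genes and could be tested. In edgeR's model of number and group 190 of 13846 genes (1.37%) passed for the number, and 0 of the 8 did. Neat1 had the smallest adjusted p of the 8 (0.329), with log2 differences of -0.56 and -0.73 for numbers 2 and 3 against number 1. The corresponding values were 0.23 and 0.43 for Malat1 (edgeR adjusted p = 0.556), -0.09 and -0.30 for Gas5 (0.401) and 0.19 and 0.11 for AW112010 (0.657). Xist, for comparison, had -12.04 and -11.51 (adjusted p = 3.97e-05).

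Proteins of the bodies that these 2 RNAs sit in were taken from lists of 12 paraspeckle and 14 nuclear speckle proteins, all of them tested. In each list 0 passed edgeR's test with or without the block (smallest blocked adjusted p of 0.404 and 0.302). The median log2 fold change was -0.09 for paraspeckle proteins, 8 of 12 below 0, and -0.06 for speckle proteins, 11 of 14 below 0. The paraspeckle median was -0.04 without control 2. Of the speckle proteins 4 were lower in every desIgf1 library, against 6.18% of all genes. Among them were the splicing factor U2af2, at 211 CPM in controls on average and 174 CPM with desIgf1 (log2 -0.28, edgeR adjusted p = 0.569), and Rnps1, at 56.9, 69.2 and 60.5 CPM against 49.5, 44.1 and 56.5 CPM (log2 -0.31, adjusted p = 0.608). Without control library 3 the median of the speckle proteins was -0.11. The neighbouring protein gene Frmd8, 4224 bases from Neat1, was at 416 ± 33.7 and 346 ± 24.6 CPM (log2 -0.27, adjusted p = 0.584).

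Gas5 (ENSMUSG00000053332, chromosome 1, 161034422 to 161038539), the snoRNA host named for its rise in growth-arrested cells, had CPM values of 329, 289 and 246 without desIgf1 and 294, 298 and 260.8 with it. The highest and the lowest library were both controls. The log2 fold change was -0.02 ± 0.13, with differences of -0.17, 0.05 and 0.09 within numbers 1 to 3, and leaving out 1 library moved it between -0.12 and 0.09. It overlaps Zbtb37 on the other strand, which was at 17.7 ± 5.72 and 15.4 ± 1.52 CPM.

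Snhg12 (ENSMUSG00000086290, chromosome 4, 132308623 to 132311024) had CPM values of 28.0, 26.1 and 21.9 without desIgf1 and 21.4, 20.7 and 21.6 with it. All 3 desIgf1 libraries lay below all 3 controls, but control 3 only just above the highest of them. The means were 25.3 ± 3.14 and 21.3 ± 0.462 CPM (SD, n = 3), a log2 fold change of -0.25 ± 0.13. Number 3 gave a log2 difference of -0.02, against -0.39 in number 1 and -0.33 in number 2. Snora16a, a snoRNA gene inside Snhg12, had 29 to 52 counts per library. It had CPM values of 1.14, 1.08 and 1.32 without desIgf1 and 0.726, 0.689 and 0.765 with it (log2 -0.69 ± 0.28, edgeR adjusted p = 0.608). The kit was for mRNA, so these counts may not measure the mature snoRNA.

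Epb41l4aos (ENSMUSG00000087590) had CPM values of 13.1, 11.6 and 14.1 without desIgf1 and 10.6, 15.7 and 11.9 with it. Both the highest and the lowest library were desIgf1 libraries. The log2 fold change was -0.02 ± 0.19, with differences of -0.31, 0.44 and -0.25 within numbers 1 to 3. It was 0.09 without desIgf1 1 and -0.21 without desIgf1 2, so its sign rests on single libraries. Gm23639, a snoRNA gene inside it, had 0 to 46 counts per library, which may likewise not measure the mature snoRNA.

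The other noncoding snoRNA hosts were taken from a list of 16, of which 10 had an identifier in the files and 8 were tested. Of these 0 passed edgeR's test with or without the block (smallest blocked adjusted p 0.417), the median log2 fold change was -0.14, and 5 of 8 were below 0. Snhg17 was at 50.6 ± 9.48 CPM without and 39.6 ± 3.65 CPM with desIgf1 (log2 -0.35, adjusted p = 0.609), Snhg15 at 18.1 ± 3.16 and 13.7 ± 2.39 CPM (log2 -0.40, adjusted p = 0.628), and Snhg5 at 59.8 ± 6.83 and 66.6 ± 3.80 CPM (log2 0.16, adjusted p = 0.704). None of the 8 had groups that did not overlap. Among 10 factors of nonsense-mediated decay, the pathway that degrades Gas5 and the Snhg transcripts, 0 passed in either fit, and the median was -0.14 with 8 of 10 below 0, and -0.08 without control 3. Smg5 was at 174 ± 2.95 and 142 ± 23.4 CPM (edgeR adjusted p = 0.608) and Upf3b at 37.9 ± 3.48 and 46.0 ± 2.28 CPM (adjusted p = 0.593). The glucocorticoid receptor, which Gas5 is known to bind, and its targets gave 0 calls among 7 tested genes of 8. The median was 0.11 with 6 of 7 above 0, and it was 0.04 without desIgf1 1 and 0.29 without desIgf1 3. Dusp1, a phosphatase gene of this list, was at 26.7 ± 5.43 and 32.8 ± 4.93 CPM (edgeR adjusted p = 0.663, and 0.291 with the block) and was higher in 3 of 3 numbers, while the groups overlapped. Klf9, a transcription factor and the 1 gene of the 7 below 0, was at 12.5 ± 1.68 and 8.90 ± 0.791 CPM (adjusted p = 0.530).

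**Figure D4:**
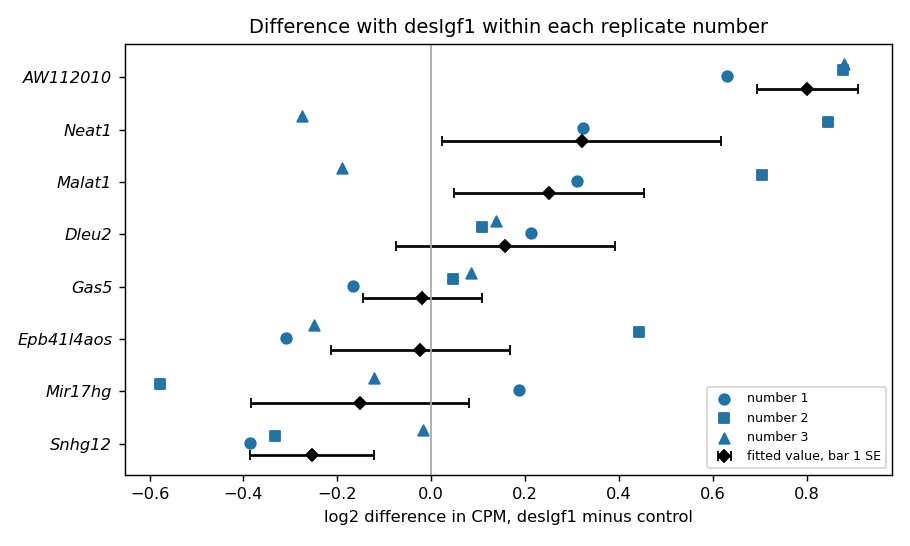
log2 difference in CPM, desIgf1 minus control, of the 8 measured genes within replicate numbers 1, 2 and 3 (blue symbols), with the fitted log2 fold change and 1 SE (black). All 3 differences are between 0.63 and 0.88 for AW112010, while those of Malat1, Neat1, Gas5, Epb41l4aos and Mir17hg lie on both sides of 0.

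Mir17hg (ENSMUSG00000089726), host of the 6 microRNAs printed above, had CPM values of 11.6, 12.6 and 9.25 without desIgf1 and 13.2, 8.41 and 8.50 with it. The highest library and the lowest were both desIgf1 libraries, and the groups overlapped. The log2 fold change was -0.15 ± 0.23, with differences of 0.19, -0.58 and -0.12 within numbers 1 to 3. It was -0.40 without desIgf1 1 and -0.05 without desIgf1 2. The 6 microRNA genes inside it had 0 counts in every library. They lie within the host on the same strand and the kit was for mRNA, so these counts do not measure the microRNAs.

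Of 10 known targets of the miR-17 to miR-92 cluster all were tested and 0 passed edgeR's test, with or without the block. The median log2 fold change was -0.19, with 7 of 10 below 0, and -0.04 without control 1. Bcl2l11, which encodes the death factor Bim, averaged 39.4 ± 7.34 CPM in controls against 27.2 ± 5.00 CPM (log2 -0.53, edgeR adjusted p = 0.530, and 0.156 with the block). Rora, a nuclear receptor of Th17 cells, had CPM values of 302, 330 and 345 without desIgf1 and 434, 617 and 409 with it, and the groups did not overlap (log2 0.58 ± 0.17, edgeR adjusted p = 0.455, and 0.179 with the block).

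Dleu2 (ENSMUSG00000097589), host of miR-15a and miR-16, was the lowest of the 8 at 112 to 181 counts per library. It had CPM values of 3.90, 3.24 and 3.21 without desIgf1 and 4.53, 3.49 and 3.54 with it. Control 1 was above 2 of the 3 desIgf1 libraries, so the groups overlapped, although the difference was positive within each number (0.21, 0.11 and 0.14). A shared direction in all 3 numbers was seen in 38% of all tested genes. The log2 fold change was 0.16 ± 0.23, and 0.03 without desIgf1 1. Trim13, a ubiquitin ligase gene that overlaps it on the other strand, had CPM values of 1.93, 2.91 and 3.12 without desIgf1 and 3.63, 4.65 and 3.95 with it (edgeR adjusted p = 0.608), and a strand setting for the counting is not stated.

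Of 9 known targets of miR-15 and miR-16, 8 were tested, 0 passed in either fit, and the median log2 fold change was -0.11, which turned to 0.03 without control 2 and was -0.23 without control 3. Bcl2, the survival gene, was at 302 ± 83.2 CPM without and 331 ± 72.1 CPM with desIgf1 (edgeR adjusted p = 0.887). Among 12 microRNA processing factors 0 passed and the median was -0.08, or -0.04 without control 3. The groups did not overlap in 1 gene that was higher and 1 that was lower with desIgf1, against 7.31% and 6.18% of all tested genes. Prkra, a partner of the nuclease Dicer, was at 8.49 ± 0.978 and 12.1 ± 1.89 CPM (log2 0.52 ± 0.18, edgeR adjusted p = 0.533, and 0.257 with the block). Drosha, the nuclease that cuts host transcripts, was at 93.4 ± 7.92 and 69.3 ± 11.7 CPM (log2 -0.43 ± 0.14, edgeR adjusted p = 0.523, and 0.267 with the block). Of the imprinted domain around Kcnq1ot1, 6 of 10 genes were tested and 0 passed, with log2 fold changes from -0.27 to 0.06. Their median was -0.04, and -0.08 without control 2.

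Among the 747 other tested long noncoding RNA genes 0 passed edgeR's test without the block (45 at an unadjusted p under 0.05) and 1 with it, while DESeq2 called 7. Their median log2 fold change was -0.05, against 0.07 for the 8 genes, and it was 0.01 without control 1 and -0.14 without control 2. From a list of 21 other known long noncoding RNAs 10 were tested and 0 passed in either fit, with a median of 0.16 that was -0.16 without control 2 and 0.33 without control 1.

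**Figure D5:**
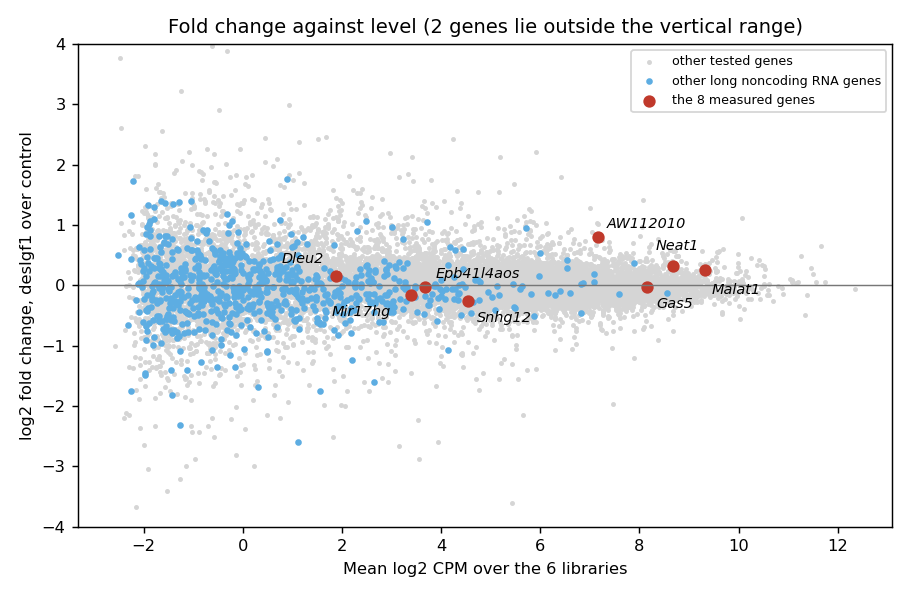
log2 fold change (desIgf1 over control) against mean log2 CPM for all tested genes (grey), with other long noncoding RNA genes in blue and the 8 measured genes in red. AW112010 lies at 0.80, and the other 7 lie between -0.25 and 0.32.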

How the data were processed

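RNA was sequenced from 6 libraries (stranded mRNA kit), 3 per group. The authors deposited whole-number counts per gene, not normalized. Per the submitters' processing notes, HTSeq 0.7.2, STAR 2.5.3, R 3.4.3, DESeq2 1.18.1, Trim Galore 0.4.5 and SAMtools 0.1.18 were used, and the build was GRCm38 (mm10). The names of the deposited files carry the word reverse. A strand setting and an annotation release are otherwise not given among the sources used here. Each file held 39179 genes and 5 summary lines, which stayed out of library sizes: 13.5 to 15.7% of uniquely placed reads overlapped no gene, and alignments that were not unique (46.4 to 48.7% of these and the gene, no-gene and ambiguous entries together) are not in the gene counts. Symbols, biotypes and lengths came from GENCODE M21 (37693 identifiers matched) and sequences from RefSeq GRCm38.p6. The counts may rest on other gene models than these lengths, which would shift levels and ranks per length.

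Tests used edgeR 4.0.16 (R 4.3.3) on the 13846 genes that filterByExpr kept at a minimum count of 10, with TMM scaling and a robust quasi-likelihood fit of the group only, with Benjamini-Hochberg adjustment over all tested genes and a threshold of 0.05. The SE is the absolute log2 fold change divided by the square root of F. log2 CPM used a prior count of 2. DESeq2 1.42.0 was an alternative. No label states separate cultures or mice for the libraries, and the p-values then reflect only how these libraries vary. Xist was at 1705 CPM in control 1 and 2219 CPM in desIgf1 1, and at most 0.682 CPM in the libraries numbered 2 and 3. Number 1 thus held cells of female mice that numbers 2 and 3 lacked, so its difference from them is not only technical. Other variation may be technical, and sex cannot be told apart from number 1.

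Same-numbered libraries deviated together (correlations of 0.59, 0.32 and 0.55 across genes for numbers 1, 2 and 3), and the numbers were therefore treated as pairing the libraries, a pairing that no label states. The blocked fit has 2 residual degrees of freedom, against 4. The members, gene lists and tests were chosen with earlier results of these data known. Named genes are the members, the list genes called in either fit or else the up to 3 with the smallest blocked p, genes overlapping a member or nearest to it within 50 kb, the 5 closest in pattern to AW112010, the 10 long noncoding genes highest per kb, and up to 5 called ones per direction. Snhg1 and Kcnq1ot1 were not analysed here. Some genes that the rule names are not reported here.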

Additional observations from a re-analysis of the deposited data

How the results depend on the processing

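The log2 fold changes of AW112010, Malat1, Neat1, Snhg12 and Dleu2 kept their sign under all 14 alternatives, while the sign turned under 3 for Gas5, 4 for Epb41l4aos and 1 for Mir17hg. That of Epb41l4aos was -0.28 under the replicate block with number 2 left out. Genes called numbered 0 in the group-only fit, 44 with the replicate block (1 of the other long noncoding RNA genes, 0 in the gene lists), 16 without the low-count filter, and 202 in DESeq2 (7 of the other long noncoding RNA genes, 3 in the lists). Under the replicate block with number 1, 2 or 3 left out, they numbered 72, 620 and 1069, those of the other long noncoding RNA genes 1, 24 and 26, and those of the lists 0, 5 and 11. AW112010 was among the calls in DESeq2, without the filter, and in the blocked fits that lack number 2 or number 3. The blocked fit without number 2 tested 14019 genes and that without number 3 tested 13987. This contrast chose AW112010, so nothing is read from its calls. With 1 library left out, 0 genes passed, and list medians turned sign in 2 of 11 lists: the other known long noncoding RNAs (-0.16 to 0.33) and the miR-15 and miR-16 targets (-0.23 to 0.03). The other ranges were -0.11 to -0.047 for nuclear speckle and -0.13 to -0.04 for paraspeckle proteins, 0.02 to 0.24 for the interferon list, 0.04 to 0.29 for the glucocorticoid list, -0.24 to -0.04 for miR-17-92 targets, -0.10 to -0.04 for microRNA processing, -0.20 to -0.08 for nonsense-mediated decay, -0.20 to -0.10 for snoRNA hosts and -0.08 to -0.03 for the Kcnq1 domain. In the blocked fit that lacks number 3 the medians of speckle proteins and other known long noncoding RNAs were -0.11 and 0.23. The number effect was called for 692 genes without the filter, against 190. Per kb of the longest transcript, an alternative chosen after seeing the data, the level was 112 for Gas5, 15.1 for Snhg12 and 0.891 for Dleu2. The causes of these differences were not tested. Fits with libraries left out also held fewer samples, and the part of that was not tested either. Depth limits Dleu2 most, with 112 counts in its lowest library.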

Other observations

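Among the other long noncoding RNA genes, Gm12532 (chromosome 3, 37182885 to 37188593) was the 1 that passed edgeR's test with the replicate block. It had CPM values of 9.54, 11.7 and 1.03 without desIgf1 and 1.85, 1.66 and 0.207 with it. In the blocked fit Gm12532 fell by 2.53 ± 0.23 log2 units (adjusted p = 0.0332) and was lower in 3 of 3 numbers. Without the block the adjusted p was 0.584, and in each group the library numbered 3 was far below the others.

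None of the other 7 long noncoding RNA genes among the 10 highest per length passed edgeR's test with or without the block. Mir142hg, host of a microRNA of blood cells, led the class at 427 ± 78.0 CPM per kb (SD, n = 6), with 269 bases of merged exons. Its rank therefore leans on a short annotated length. Mir142hg was at 114 ± 33.0 CPM without and 116 ± 2.87 CPM with desIgf1 (edgeR adjusted p = 0.976). The class as annotated also takes in Cct6a and Ifi30, genes known to encode proteins, at ranks 7 and 9, and Gm42418, which is known to overlap a ribosomal RNA repeat, at rank 2. Mir22hg had CPM values of 6.77, 6.47 and 8.68 without desIgf1 and 11.1, 17.1 and 9.18 with it (adjusted p = 0.527). Pvt1, the neighbour of Myc, had CPM values of 13.4, 11.8 and 14.6 without desIgf1 and 10.3, 8.50 and 10.4 with it (adjusted p = 0.560). The groups overlapped in neither Mir22hg nor Pvt1, and Tug1, at 81.0 ± 8.72 and 109 ± 22.9 CPM (adjusted p = 0.603), overlapped.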
